A study of Homo sapiens with 9 samples.

Results

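The genes described here are 42 NF-kB subunits, feedback inhibitors and targets, chemokines and cytokines, listed by name with the IL1 family left out and found by mapping Ensembl gene IDs to symbols. All 42 were among the 41857 genes in the files, and 34 passed a filter on low values (3 or more libraries at 10 or higher) that left 15108 genes to test. RNA with a poly(A) tail was sequenced from MCF10A, an epithelial line from human breast that does not form tumors, grown with horse serum, epidermal growth factor, hydrocortisone, cholera toxin and insulin. The study asked which genes 2 isoforms of the transcription factor p63 regulate, with 3 cultures that carried only the vector, 3 that expressed human deltaNp63alpha and 3 that expressed human deltaNp63beta. All 9 cultures, vector included, received doxycycline at 500 ng/mL for 24 h, and the genotype is given as WT for all of them. The isoforms lack the N-terminal transactivation domain, share the DNA-binding domain and differ at the C-terminus. Whether each line was a clone or a pool, and which promoter drove the transgenes, is not given in the sources used here, and protein was not measured.

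NF-kB is a family of dimeric transcription factors that IkB proteins hold inactive in the cytoplasm until an IkB kinase marks those inhibitors for destruction. Once in the nucleus the dimers raise transcription of chemokines, which attract leukocytes, of cytokines, and of their own inhibitors, which close the loop. Epithelial cells of skin and breast use this pathway to call neutrophils and lymphocytes after injury or infection.

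Promoter sequences of the chemokine cluster and of 2 other NF-kB-responsive members are shown because they carry 1 word in common, the site GGAATTTCC, which reads GGAAATTCC on the other strand. RefSeq promoters (GRCh38.p14) existed for 32 of the 42 members, with 46 promoters between them. This word lay in the 250 bases before the RefSeq start, on either strand, in 14 of these 46 promoters, each of a different member. It lay in 145 of all 35116 promoters in the table, which is 0.413%. Each line gives 30 bases, 5′ to 3′ on the strand of the gene, with the word in capitals.
CXCL8, chr4:73740468-73740497, plus strand: tgcaaatcgtGGAATTTCCtctgacataat
CXCL6, chr4:73836579-73836608, plus strand: ctgagttcagGGAATTTCCccagcatccca
CXCL1, chr4:73869305-73869334, plus strand: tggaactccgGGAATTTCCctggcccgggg
CXCL5, chr4:73998748-73998777, minus strand: atgagttcagGGAATTTCCccagcatccca
CXCL3, chr4:74038748-74038777, minus strand: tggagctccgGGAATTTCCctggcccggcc
CXCL2, chr4:74099253-74099282, minus strand: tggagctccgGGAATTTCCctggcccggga
CXCL10, chr4:76023654-76023683, minus strand: aggagcagagGGAAATTCCgtaacttggag
CXCL11, chr4:76036126-76036155, minus strand: actcaaagagGGAAATTCCtgtgccataaa
NFKBIA, chr14:35404811-35404840, minus strand: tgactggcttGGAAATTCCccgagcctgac
ICAM1, chr19:10270924-10270953, plus strand: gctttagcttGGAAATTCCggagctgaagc
In the 6 neutrophil chemokine genes the word began between 77 and 91 bases before the start. Over the 100 bases before the start, CXCL1 and CXCL3 were identical at 90% of positions aligned without gaps. The other 4 members with the word were REL, NFKBIZ, NFKB1 and TSLP. A match is a description of letters and no evidence of binding.

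Each library summed to 22.5 to 23.2 M (mega) normalized estimated counts, the unit of every level below, and the step between low values puts its depth at about 20.3 to 24.4 M fragments. TP63, the gene that encodes both isoforms, had a mean of 302.3 ± 38.1 with vector, 6123 ± 1470 with deltaNp63alpha and 5257 ± 1310 with deltaNp63beta (SD, n = 3 libraries each), and no vector library came near any isoform library. The vector cultures carried no TP63 transgene, so their value is that of the cells' own gene. In the isoform libraries the value does not separate the transgene from that gene. All 10 mammary epithelial markers were measured. Their summed level was 118144 to 126210 with vector, 198253 to 206325 with deltaNp63alpha and 312667 to 324949 with deltaNp63beta. Limma called 8 higher and 1 lower with deltaNp63alpha, and 8 and 0 with deltaNp63beta (8 and 0 at an unadjusted p under 0.05). KRT5 was the largest part of that sum (means of 55460, 92600 and 147000). KRT8 (5290, 4292 and 5418) was lower with deltaNp63alpha than with vector. EGFR (10680, 14880 and 10670) was no higher with deltaNp63beta, and these 3 were named after their values were seen. Of 11 leukocyte markers, PTPRC, CD3E, MS4A1, LYZ and NKG7 were under 10 in every library and none was at 0 in all, and the list summed to 1873 to 2092, 1285 to 1645 and 1245 to 1374 in the same order. Of its 5 tested genes, 0 were called higher and 2 lower with deltaNp63alpha by limma (0 and 2 at an unadjusted p under 0.05), and 2 higher and 3 lower with deltaNp63beta. Picked after their values were seen, CD14 (means of 23.63, 19.08 and 170.3) and LAPTM5 (154.2, 181 and 299.4) rose with deltaNp63beta, while ITGB2 (543.2, 285.6 and 148.5) and CD68 (1111, 842.3 and 610.9) fell with both isoforms. The 6 endothelial markers summed to 204 to 276, 171 to 174 and 110 to 143, with CDH5 and CLDN5 under 10 throughout. The 8 fibroblast markers summed to 11400 to 11832, 8326 to 8521 and 12968 to 14019. Of 6 tested, limma called 0 higher and 3 lower with deltaNp63alpha (0 and 3 at an unadjusted p under 0.05), and 2 higher and 2 lower with deltaNp63beta. Most of that sum was FBLN1 (means of 9233, 7224 and 12430), while DCN (1211, 349.6 and 165.9) and FAP (852.3, 620.1 and 520.4) fell with both isoforms, all named after their values were seen. Among all tested genes, 8.13% were called higher and 6.37% lower with deltaNp63alpha, and 21.8% and 19.5% with deltaNp63beta. The part of these markers in the results below was not tested, and in bulk RNA fewer cells of a type and less RNA per cell cannot be told apart. Libraries are given in the order of replicates 1, 2 and 3, a change is a difference of log2(value + 1) means, given with its SE, and a gene is called where the limma p adjusted over all 15108 genes is under 0.05. The p-values measure the spread between these libraries, which the series describes as biological triplicates.

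With deltaNp63alpha, the neutrophil chemokines CXCL1, CXCL3 and CXCL8 and the listed NF-kB targets BIRC3, SOD2 and TNFAIP2 fell. CXCL2 and ICAM1 of the same groups were not called, and of 21 other tested NF-kB targets 7 were called higher and 5 lower. With deltaNp63beta, the listed feedback inhibitors, the tested epithelial chemokines, IL32 and SOD2 rose, while IL11 fell. Against vector, deltaNp63alpha had 1 of 34 tested members called higher and 9 called lower, beside 8.13% and 6.37% of all tested genes. DeltaNp63beta had 16 called higher and 5 called lower, beside 21.8% and 19.5% of all genes. Between the isoforms, 19 members were called higher with deltaNp63beta and 1 lower, beside 17.4% and 15.5% of all genes. Both comparisons with vector share the same 3 vector libraries.

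**Figure D1:**
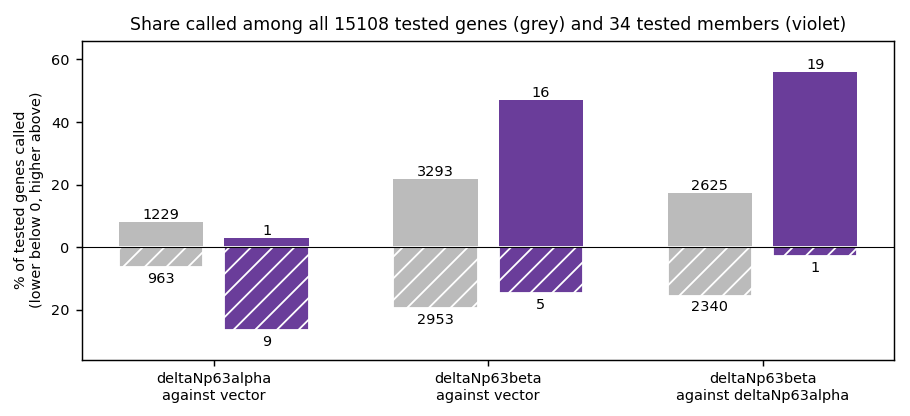
Bars give the percentage of tested genes called higher (above 0) or lower (below 0, hatched) in each comparison, for all 15108 tested genes in grey and the 34 tested members in violet, with the number of genes at each bar. Among the members, the lower bar is the longer one for deltaNp63alpha against vector (9 against 1), and the higher bar is the longer one for deltaNp63beta against vector (16 against 5) and against deltaNp63alpha (19 against 1).

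The median change over the tested members was -0.10 with deltaNp63alpha, where that of all genes was -0.01, and 0.38 with deltaNp63beta, where that of all genes was also -0.01. DeltaNp63beta minus deltaNp63alpha gave a median of 0.54 against 0 for all genes. CXCL10 and CXCL11 passed the filter only through the deltaNp63beta libraries, and IL6 only through the vector libraries, so that these had to differ between groups. Without those 3, the members called were 1 higher and 8 lower with deltaNp63alpha, 14 and 4 with deltaNp63beta, and 17 and 1 between the isoforms. The vector and deltaNp63alpha libraries did not overlap for 4 members that lay higher and 10 that lay lower, beside 16.7% and 16.8% of all genes. For deltaNp63beta against vector these numbers were 20 and 5, beside 26.2% and 24.4% of all genes, and between the isoforms 22 and 4, beside 22.9% and 21.9%. The members were also more variable within groups than the typical gene, with a median SD of 0.19 in log2 units against 0.14 for all tested genes, from 0.05 for SOD2 to 0.87 for IL24. DeltaNp63alpha replicate 3 was the highest of its group for 20 of the 34 members, 58.8%, where it was the highest for 31.4% of all tested genes. Replicate 3 was also most often the highest in the vector and deltaNp63beta groups, for 15 members in each, 44.1%. Over all tested genes its shares there were 34.1% and 36.6%.

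**Figure D2:**
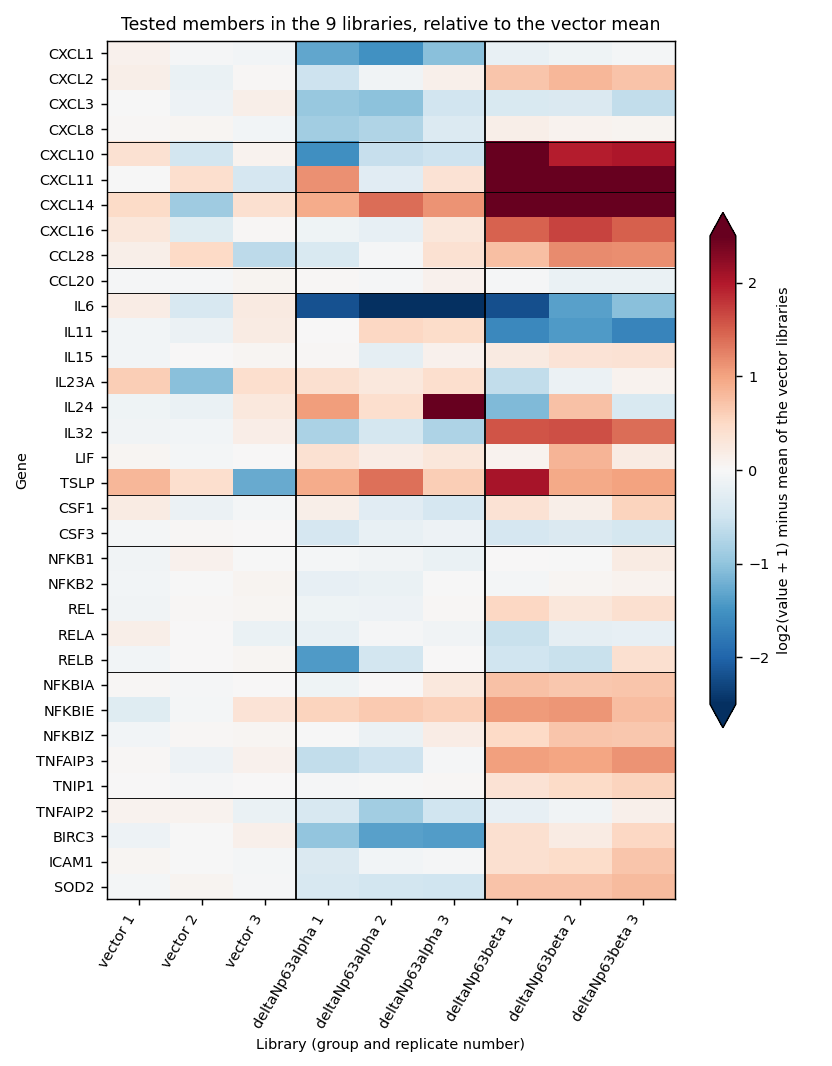
Each row is 1 of the 34 tested members, grouped by role, and each column 1 of the 9 libraries. Color gives log2(value + 1) minus the mean of the vector libraries, with red higher, blue lower and values past 2.5 at full color. CXCL1, IL6 and BIRC3 are blue in all 3 deltaNp63alpha libraries, and CXCL11, CXCL14, CXCL16 and IL32 are red in all 3 deltaNp63beta libraries.

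The neutrophil chemokines are ELR-motif CXC ligands of the receptors CXCR1 and CXCR2. Of the 6 listed, CXCL5 and CXCL6 were listed at 0 in all 9 libraries, and the other 4 were tested. With deltaNp63alpha CXCL1, CXCL3 and CXCL8 fell, with deltaNp63beta CXCL2 rose and CXCL3 fell, and CXCL1, CXCL2 and CXCL8 were higher with deltaNp63beta than with deltaNp63alpha.

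CXCL1 (ENSG00000163739, GRCh38 chromosome 4, 73869393 to 73871242, plus strand) was at 1792, 1638 and 1599 with vector, 679, 587.9 and 813.6 with deltaNp63alpha, and 1470, 1550 and 1616 with deltaNp63beta. All 3 deltaNp63alpha libraries lay below every other library, while the deltaNp63beta and vector ranges overlapped. Its change with deltaNp63alpha was -1.28 ± 0.10 (adjusted p = 8.43e-06), with deltaNp63beta -0.12 ± 0.10 (adjusted p = 0.393), and between the isoforms 1.17 ± 0.10 (adjusted p = 8.31e-06). CXCL8, or interleukin 8 (chromosome 4, 73740506 to 73743716, plus strand), was at 1550, 1565 and 1454 with vector, 827.9, 908.5 and 1193 with deltaNp63alpha, and 1688, 1628 and 1596 with deltaNp63beta. Here too each deltaNp63alpha library was below all others, and deltaNp63alpha replicate 3 was nearest to vector. The change was -0.66 ± 0.11 with deltaNp63alpha (adjusted p = 0.00185) and 0.11 ± 0.11 with deltaNp63beta (adjusted p = 0.473), with 0.76 ± 0.11 between them (adjusted p = 0.000307).

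CXCL2 (chromosome 4, 74097035 to 74099293, minus strand) was at 587.4, 470.3 and 541.5 with vector, 373, 499 and 581.6 with deltaNp63alpha, and 853.9, 939.8 and 865.3 with deltaNp63beta. The deltaNp63beta libraries were above all others, and the vector and deltaNp63alpha ranges overlapped. It rose by 0.74 ± 0.14 with deltaNp63beta (adjusted p = 0.00166) and was 0.89 ± 0.14 higher than with deltaNp63alpha (adjusted p = 0.000676), while the change with deltaNp63alpha was -0.16 ± 0.14 (adjusted p = 0.546). CXCL3 (chromosome 4, 74036589 to 74038807, minus strand) was at 254.2, 234.3 and 285.2 with vector, 132.9, 125.8 and 183.2 with deltaNp63alpha, and 198.2, 199.2 and 168.1 with deltaNp63beta. Both isoform groups lay below vector, and they overlapped each other. The change was -0.82 ± 0.16 with deltaNp63alpha (adjusted p = 0.00524) and -0.45 ± 0.16 with deltaNp63beta (adjusted p = 0.0414). The latter call was lost on leaving out any deltaNp63beta library or vector replicates 1 or 3 (adjusted p = 0.0592 to 0.135). Between the isoforms CXCL3 differed by 0.37 ± 0.16 (adjusted p = 0.1), and by 0.54 without deltaNp63alpha replicate 3 (adjusted p = 0.0218).

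**Figure D3:**
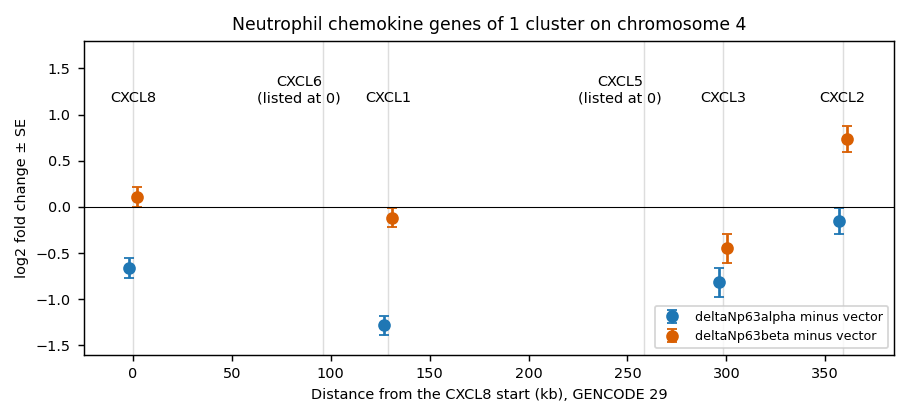
The horizontal axis is the distance in kb from the start of CXCL8 on chromosome 4, and the vertical axis the log2 fold change ± SE against vector for deltaNp63alpha (blue) and deltaNp63beta (orange). All 4 tested genes lie below 0 with deltaNp63alpha, from -0.16 for CXCL2 to -1.28 for CXCL1, and from -0.45 for CXCL3 to 0.74 for CXCL2 with deltaNp63beta.

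The 6 genes lie within 358.8 kb of the CXCL8 start, and neighbors differed in their change. CXCL3 and CXCL2, at 298.3 and 358.8 kb, went in opposite directions with deltaNp63beta. These close relatives share sequence: 14.4% of the 31-base words of CXCL1 transcripts, 22.4% of those of CXCL2 and 9.5% of those of CXCL3 occur in another gene, mostly each other, against 0% for CXCL8. Reads from the shared stretches can be divided between CXCL1, CXCL2 and CXCL3 by the estimate, and how they were divided is not given in the sources used here.

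CXCL10 and CXCL11 attract activated T cells through CXCR3 and are induced by interferon as well as NF-kB. They lie close together on chromosome 4, 2283 and 2300.9 kb from CXCL8, and both rose from near 0 with deltaNp63beta. CXCL11 (76033682 to 76041415, minus strand) was at 3.35, 4.86 and 2.28 with vector, 8.71, 2.59 and 4.65 with deltaNp63alpha, and 92.99, 86.73 and 75.83 with deltaNp63beta. CXCL10 (76021117 to 76023497, minus strand) was at 2.75, 1.11 and 2.08, then 0, 0.95 and 1.02, and 15.73, 10.26 and 10.79 in the same order. In both genes the deltaNp63beta libraries were above all 6 others. Both passed the filter only through the deltaNp63beta libraries, so a difference was built into their being tested and the p-values are no added support. CXCL11 rose by 4.30 ± 0.47 (adjusted p = 2.53e-05) and CXCL10 by 2.17 ± 0.72 (adjusted p = 0.0307) with deltaNp63beta against vector. Against deltaNp63alpha the differences were 3.88 ± 0.47 (adjusted p = 9.31e-05) and 3.05 ± 0.72 (adjusted p = 0.00714). The CXCL10 call against vector was lost without vector replicate 2 (adjusted p = 0.0888) or 3 (adjusted p = 0.0656) and with a pseudocount of 0.1 (adjusted p = 0.134). Without any 1 deltaNp63beta library both genes failed the filter and were not tested. With deltaNp63alpha against vector neither was called (0.41 ± 0.47 for CXCL11 and -0.88 ± 0.72 for CXCL10). CXCL11 overlaps another gene on its own strand, and both overlap ART3 on the other.

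The chemokines of resting epithelia rose with deltaNp63beta in 3 of 3 tested cases, and with deltaNp63alpha 0 were called by limma (1 at an unadjusted p under 0.05). Of all tested genes, 21.8% were called higher with deltaNp63beta and 8.13% with deltaNp63alpha. CXCL14, a chemokine of skin and breast epithelium (chromosome 5, 135570679 to 135579279, minus strand), was at 10.8, 3.55 and 10.15 with vector, 14.95, 21.25 and 17.43 with deltaNp63alpha, and 163.7, 68.92 and 96.31 with deltaNp63beta. CXCL16, a membrane-bound ligand of CXCR6 (chromosome 17, 4733526 to 4739922, minus strand), was at 237.2, 158.1 and 200.6, then 182.9, 170.9 and 238.3, and 545.1, 633.8 and 551.1. CCL28, a mucosal ligand of CCR10 that the mammary gland makes in lactation, was at 44.29, 56.94 and 25.05, then 30.22, 39.12 and 51.92, and 68.08, 92.11 and 90.36. In all 3 genes the deltaNp63beta libraries were above the 6 others, by the widest margin for CXCL14 and the narrowest for CCL28. For CXCL14 the 3 deltaNp63alpha libraries were also above the 3 vector libraries, but that change of 1.15 ± 0.44 was not called (adjusted p = 0.113).

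Against vector the deltaNp63beta changes were 3.62 ± 0.44 for CXCL14 (adjusted p = 5.79e-05), 1.55 ± 0.17 for CXCL16 (adjusted p = 2.18e-05) and 1.04 ± 0.32 for CCL28 (adjusted p = 0.0222). Against deltaNp63alpha they were 2.47 ± 0.44 (adjusted p = 0.00132), 1.55 ± 0.17 (adjusted p = 3.64e-05) and 1.05 ± 0.32 (adjusted p = 0.0259). CCL28 was the least secure of these calls. Against vector it was lost without vector replicate 3 (0.71, adjusted p = 0.0793) or deltaNp63beta replicate 2 or 3 (adjusted p = 0.0716 and 0.065). Against deltaNp63alpha it was lost without deltaNp63alpha replicate 1 or 2 or deltaNp63beta replicate 2 or 3 (adjusted p = 0.0641 to 0.0907). CX3CL1, or fractalkine, reached at most 6.66 in any library and was not tested.

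Of the CC chemokines that draw monocytes, T cells and dendritic cells, only CCL20, a ligand of CCR6, had levels that could be tested. It was at 368.8, 366.4 and 391.5 with vector, 382.7, 369.8 and 404.4 with deltaNp63alpha, and 369.7, 332.6 and 333 with deltaNp63beta. Vector overlapped both isoform groups, and the highest deltaNp63beta library lay just below the lowest deltaNp63alpha library. Its change was 0.04 ± 0.09 with deltaNp63alpha (adjusted p = 0.836) and -0.12 ± 0.09 with deltaNp63beta (adjusted p = 0.293). CCL2 reached at most 1.22 and CCL5 at most 8.24.

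**Figure D4:**
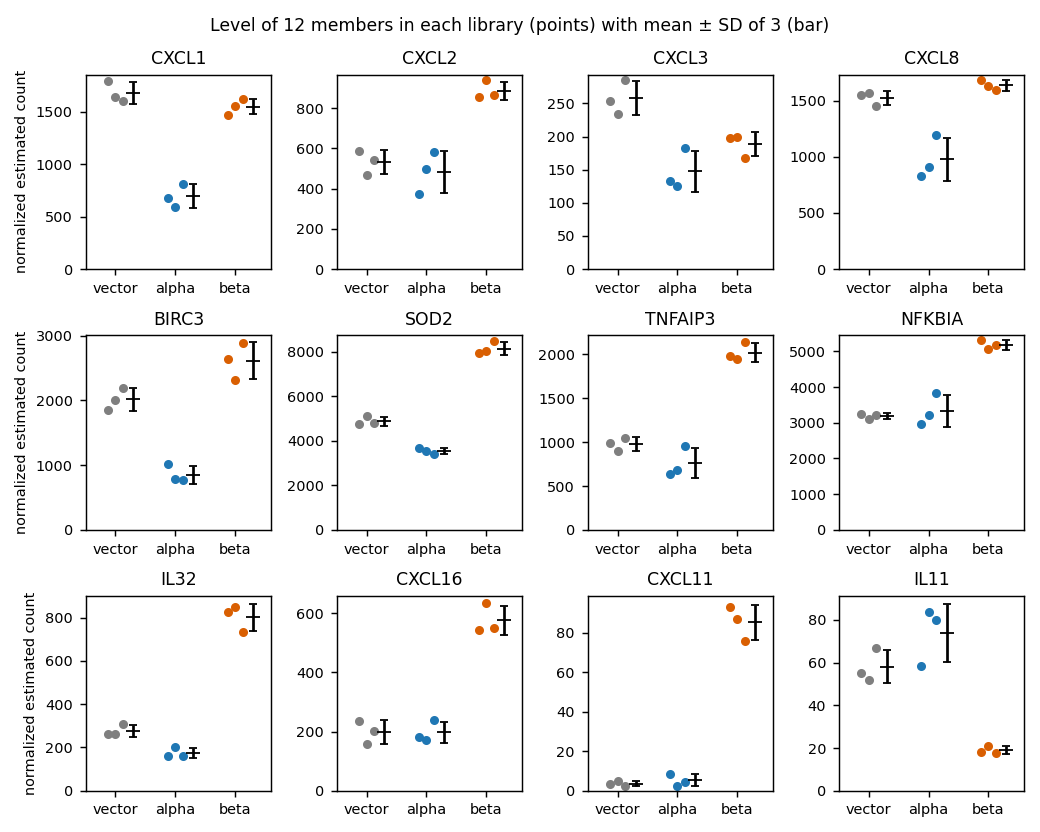
Points are the normalized estimated counts of 12 members in the 3 libraries of each group, labelled vector, alpha (deltaNp63alpha) and beta (deltaNp63beta), and bars give the mean ± SD of 3, on axes that start at 0. CXCL1, CXCL8, BIRC3 and SOD2 have their lowest points with deltaNp63alpha, TNFAIP3, NFKBIA, IL32, CXCL16 and CXCL11 their highest with deltaNp63beta, and IL11 its lowest with deltaNp63beta.

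Among the cytokines, IL32 rose with deltaNp63beta and fell with deltaNp63alpha, IL11 fell with deltaNp63beta and was not called with deltaNp63alpha, and IL6 fell with both. IL32, a proinflammatory cytokine of human epithelial and immune cells (chromosome 16, 3065297 to 3082192, plus strand), was at 260.4, 261.3 and 307.5 with vector, 158.8, 202.3 and 160.7 with deltaNp63alpha, and 824, 848.4 and 731.6 with deltaNp63beta. The 3 groups formed 3 separate ranges. Its change was -0.67 ± 0.12 with deltaNp63alpha (adjusted p = 0.00346) and 1.53 ± 0.12 with deltaNp63beta (adjusted p = 2.09e-06). Between the isoforms it differed by 2.20 ± 0.12 (adjusted p = 2.41e-07). IL32 overlaps a small RNA pseudogene on its own strand.

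IL11, a cytokine of the IL6 family that signals through gp130 (chromosome 19, 55364389 to 55370463, minus strand), was at 55.24, 52.03 and 66.99 with vector, 58.35, 83.61 and 79.73 with deltaNp63alpha, and 18.13, 21.15 and 17.68 with deltaNp63beta. Every deltaNp63beta library was well below the other 6, and the vector and deltaNp63alpha ranges overlapped. The change was -1.56 ± 0.24 with deltaNp63beta (adjusted p = 0.000293) and 0.33 ± 0.24 with deltaNp63alpha (adjusted p = 0.409), and the isoforms differed by -1.89 ± 0.24 (adjusted p = 0.000119). IL11 was the member called lower with deltaNp63beta than with deltaNp63alpha. IL6 itself, the founding member of that family, was low throughout, at 21.02, 13.65 and 21.59 with vector, 3.28, 1.60 and 1.75 with deltaNp63alpha, and 3.25, 6.54 and 8.39 with deltaNp63beta. All 6 isoform libraries were below the 3 vector libraries. IL6 passed the filter only through the vector libraries, so a difference was built into its being tested and its p-values are no added support.

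IL6 changed by -2.63 ± 0.55 with deltaNp63alpha (adjusted p = 0.00824) and by -1.53 ± 0.55 with deltaNp63beta (adjusted p = 0.0451). The latter call was lost without deltaNp63alpha replicate 3 or any deltaNp63beta library (adjusted p = 0.0505 to 0.132). It was also lost with a pseudocount of 0.1 (adjusted p = 0.0709) and with quantile normalization (adjusted p = 0.117). Without any 1 vector library IL6 failed the filter and was not tested. IL24, which acts through receptors with the IL20RB chain, was the most variable member, at 17.87, 17.26 and 23.5 with vector, 40.96, 26.28 and 130.4 with deltaNp63alpha, and 8.52, 32.94 and 14.71 with deltaNp63beta. A single library, deltaNp63alpha replicate 3, stood far above the rest. No comparison of IL24 was called, with -1.63 ± 0.58 between the isoforms (adjusted p = 0.0521), which passed without deltaNp63alpha replicate 2 (-2.11, adjusted p = 0.0258) or deltaNp63beta replicate 2 (-2.12, adjusted p = 0.0244).

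The remaining cytokines were not called. LIF, which keeps stem cells undifferentiated through gp130 and LIFR, had means of 151 ± 5.46, 184.3 ± 11.7 and 202.3 ± 61.3 with vector, deltaNp63alpha and deltaNp63beta (SD, n = 3 libraries each). Its change with deltaNp63beta, 0.38 ± 0.18 (adjusted p = 0.118), was called without deltaNp63beta replicate 1 (0.52, adjusted p = 0.0471). IL15, a survival factor of NK and memory T cells, had means of 95.98 ± 4.28, 94.06 ± 11.3 and 119.2 ± 6.58, and TSLP, an epithelial alarm cytokine, 7.65 ± 5.07, 13.71 ± 3.96 and 18.81 ± 9.28. IL23A, a subunit of interleukin 23, had means from 6.72 ± 1.82 to 10.41 ± 0.61. IL15 lay higher in all 3 deltaNp63beta libraries than in the 6 others, by 0.31 ± 0.15 against vector (adjusted p = 0.129). IL20 reached at most 3.96. TNF was listed at 0 in 8 libraries and at 0.98 in the other. TNF lies in the HLA region of chromosome 6, where 22.1% of 136 protein-coding genes were listed at 0 in all libraries against 9.9% elsewhere, so its value was not read as a level.

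Colony-stimulating factors drive the growth of myeloid cells. CSF3, the granulocyte factor, was at 1829, 1930 and 1888 with vector, 1415, 1663 and 1713 with deltaNp63alpha, and 1399, 1471 and 1389 with deltaNp63beta. Both isoform groups lay below vector. It fell by 0.41 ± 0.07 with deltaNp63beta (adjusted p = 0.000811), while the smaller change with deltaNp63alpha, -0.24 ± 0.07, was barely called (adjusted p = 0.0432). That call was lost without any 1 vector library, deltaNp63alpha replicate 1 or 2 or deltaNp63beta replicate 1 or 2 (adjusted p = 0.0503 to 0.128). It was also lost with both looser filters (adjusted p = 0.0532 and 0.0611), only the 2 groups compared (0.0584) and no mean-variance trend (0.103). The isoforms differed by -0.17 ± 0.07 (adjusted p = 0.0999), which was called without deltaNp63alpha replicate 1 (-0.25, adjusted p = 0.00837). CSF1, the macrophage factor, was at 469.6, 369.3 and 395.7, then 450.9, 335.5 and 305, and 526.4, 452.3 and 599. The deltaNp63beta libraries were above the deltaNp63alpha libraries by a narrow margin. The difference was 0.54 ± 0.16 (adjusted p = 0.0207), lost without deltaNp63alpha replicate 2 or 3 or deltaNp63beta replicate 3 (adjusted p = 0.0696 to 0.0837). Against vector CSF1 changed by 0.35 ± 0.16 with deltaNp63beta (adjusted p = 0.0964, and 0.05 without deltaNp63alpha replicate 1). CSF2 reached at most 7.16.

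Of the 5 NF-kB subunits, 0 were called with deltaNp63alpha by limma (0 at an unadjusted p under 0.05), and with deltaNp63beta REL rose and RELA fell. REL, a transactivating subunit (chromosome 2, 60881521 to 60931610, plus strand), was at 422.5, 457.1 and 464.5 with vector, 417.1, 411.7 and 453.9 with deltaNp63alpha, and 640.9, 548.3 and 590.6 with deltaNp63beta. All deltaNp63beta libraries were above the 6 others. The change was 0.40 ± 0.09 against vector (adjusted p = 0.00331) and 0.47 ± 0.09 against deltaNp63alpha (adjusted p = 0.00174). Of the 31-base words of REL transcripts, 45.4% occur in another gene, nearly all of them in AC010733.2, which overlaps it on the same strand, so that the value of REL is uncertain. RELA, or p65, the main transactivating subunit, was at 2076, 1886 and 1676, then 1637, 1825 and 1757, and 1267, 1608 and 1623. The deltaNp63beta libraries were the lowest, with replicate 1 lowest of all.

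RELA changed by -0.33 ± 0.10 with deltaNp63beta (adjusted p = 0.0235), a call lost without vector replicate 1 or 2 or deltaNp63beta replicate 1 (adjusted p = 0.0593 to 0.0919). NFKB1, the p50 precursor, had means of 1889 ± 121, 1762 ± 63.7 and 1981 ± 167, and NFKB2, the p52 precursor, 2091 ± 94.9, 1918 ± 138 and 2139 ± 112 (SD, n = 3 libraries each). Neither was called, although NFKB2 passed between the isoforms without deltaNp63alpha replicate 3 (0.22, adjusted p = 0.0319) or deltaNp63beta replicate 1 (0.20, adjusted p = 0.0477). RELB, the partner of p52, was at 74.15, 78.07 and 79.78 with vector but ranged from 28.4 to 77.37 with deltaNp63alpha and from 52.32 to 101.8 with deltaNp63beta. The isoform libraries of RELB were far more scattered than the vector libraries, and no comparison was called.

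All 5 listed inhibitors and feedback genes rose with deltaNp63beta, and NFKBIE was the one called with deltaNp63alpha. Of all tested genes, 21.8% and 8.13% were called higher in these comparisons. Among 12 other tested inhibitors and cofactors, 1 was called higher and 1 lower with deltaNp63beta. NFKBIA, or IkBalpha, which holds NF-kB in the cytoplasm and is itself one of its fastest targets (chromosome 14, 35401511 to 35404749, minus strand), was at 3233, 3105 and 3227 with vector, 2974, 3209 and 3833 with deltaNp63alpha, and 5325, 5052 and 5175 with deltaNp63beta. TNFAIP3, or A20, a ubiquitin-editing enzyme that stops signaling to the IkB kinase (chromosome 6, 137867188 to 137883312, plus strand), was at 991.5, 898.9 and 1050, then 639.3, 686.3 and 955.2, and 1981, 1945 and 2140. In both genes the deltaNp63beta libraries were far above the rest, and deltaNp63alpha replicate 3 was the highest of its group. NFKBIA rose by 0.70 ± 0.08 with deltaNp63beta (adjusted p = 2.51e-05) and TNFAIP3 by 1.05 ± 0.13 (adjusted p = 5.88e-05). Against deltaNp63alpha the differences were 0.64 ± 0.08 (adjusted p = 8.36e-05) and 1.43 ± 0.13 (adjusted p = 9.1e-06).

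With deltaNp63alpha TNFAIP3 changed by -0.39 ± 0.13 (adjusted p = 0.0684), and by -0.56 without deltaNp63alpha replicate 3 (adjusted p = 0.00165), where it was called. NFKBIA changed by 0.06 ± 0.08 (adjusted p = 0.681). TNIP1, which binds A20, was at 5416, 5266 and 5435 with vector, 5270, 5330 and 5493 with deltaNp63alpha, and 6908, 7490 and 7859 with deltaNp63beta, a rise of 0.46 ± 0.05 (adjusted p = 1.75e-05). NFKBIZ, a nuclear IkB that turns on a second set of NF-kB targets, rose by 0.62 ± 0.09 with deltaNp63beta (adjusted p = 0.000281), from a mean of 672.1 ± 28.4 to 1034 ± 77.9. For TNIP1 and NFKBIZ the vector and deltaNp63alpha libraries overlapped and the deltaNp63beta libraries were above both. NFKBIE, or IkBepsilon, was at 107.9, 128.3 and 169.4, then 197, 208.9 and 200.2, and 278.9, 285 and 228.3, so that its 3 groups did not overlap. It rose by 0.98 ± 0.17 with deltaNp63beta (adjusted p = 0.000635) and by 0.60 ± 0.17 with deltaNp63alpha (adjusted p = 0.032). The deltaNp63alpha call was lost without vector replicate 1 or 2 or any deltaNp63alpha library (adjusted p = 0.0696 to 0.104). Between the isoforms NFKBIE differed by 0.38 ± 0.17 (adjusted p = 0.104).

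The 4 listed target genes, which encode effectors of survival, adhesion and oxidant defense, were all higher with deltaNp63beta than with deltaNp63alpha. In that comparison 17.4% of all tested genes were called higher. SOD2, the mitochondrial superoxide dismutase, was at 4735, 5099 and 4775 with vector, 3668, 3550 and 3424 with deltaNp63alpha, and 7925, 8014 and 8473 with deltaNp63beta. BIRC3, or cIAP2, an inhibitor of apoptosis and ubiquitin ligase of the TNF receptor complex (chromosome 11, 102317450 to 102339403, plus strand), was at 1850, 2000 and 2197, then 1011, 783.5 and 765.7, and 2639, 2312 and 2882. Both genes gave 3 separate ranges, with deltaNp63alpha lowest and deltaNp63beta highest. SOD2 fell by 0.46 ± 0.05 with deltaNp63alpha (adjusted p = 4.97e-05) and rose by 0.74 ± 0.05 with deltaNp63beta (adjusted p = 2.85e-07), with 1.20 ± 0.05 between them (adjusted p = 1.73e-08). BIRC3 fell by 1.25 ± 0.11 with deltaNp63alpha (adjusted p = 2.28e-05), and between the isoforms it differed by 1.62 ± 0.11 (adjusted p = 1.5e-06). Its rise of 0.37 ± 0.11 with deltaNp63beta (adjusted p = 0.0217) was lost on leaving out deltaNp63beta replicates 1 or 3 or vector replicates 1 or 2 (adjusted p = 0.0548 to 0.0818).

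ICAM1, the adhesion molecule to which leukocyte integrins bind (chromosome 19, 10270835 to 10286615, plus strand), was at 485.2, 468.1 and 452.5 with vector, 366.6, 446.8 and 459.1 with deltaNp63alpha, and 619.6, 645.6 and 758.5 with deltaNp63beta. The deltaNp63beta libraries stood above the rest, and the others overlapped. It rose by 0.52 ± 0.11 with deltaNp63beta (adjusted p = 0.00242) and differed by 0.67 ± 0.11 between the isoforms (adjusted p = 0.000662). TNFAIP2, a TNF-induced gene, was at 964.2, 966.4 and 807.7, then 685.9, 497 and 645.8, and 786.6, 859.5 and 992.4. The deltaNp63alpha libraries were the 3 lowest, and vector and deltaNp63beta overlapped. It fell by 0.59 ± 0.13 with deltaNp63alpha (adjusted p = 0.0102), and deltaNp63beta was 0.54 ± 0.13 above deltaNp63alpha (adjusted p = 0.0082).

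**Figure D5:**
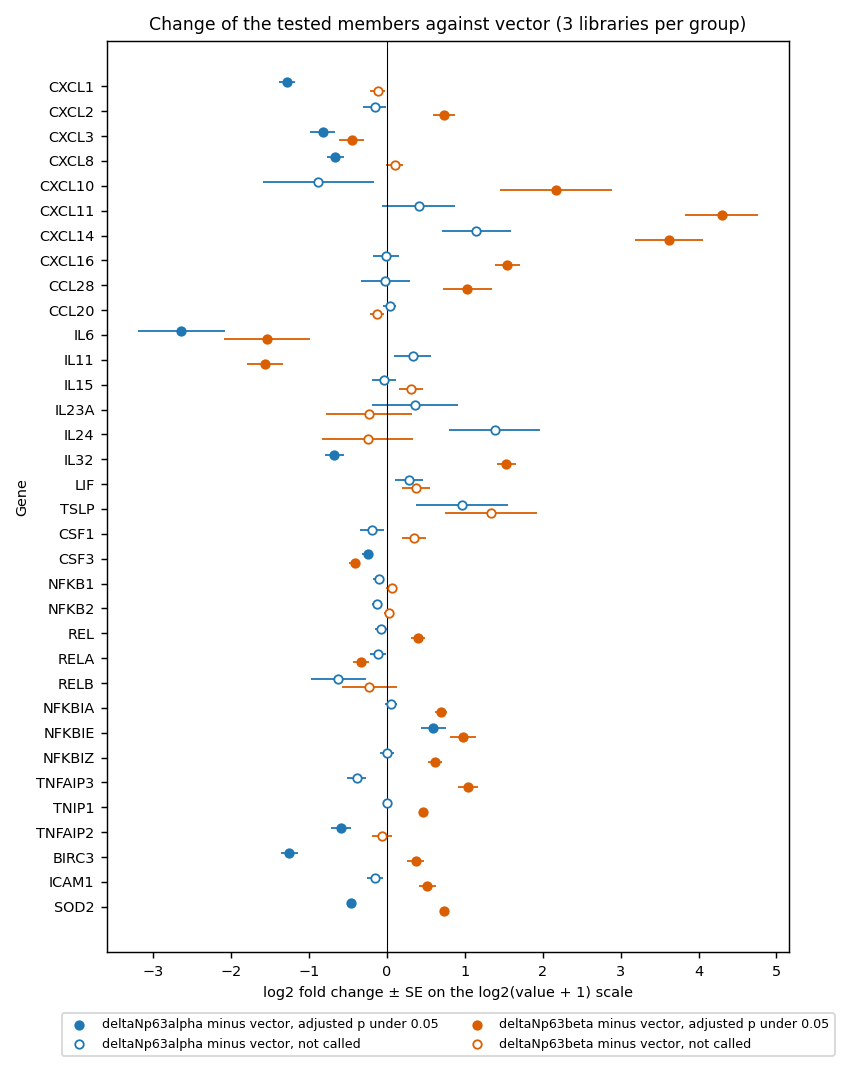
Points give the log2 fold change ± SE of each of the 34 tested members against vector, for deltaNp63alpha in blue and deltaNp63beta in orange, filled where the adjusted p is under 0.05. IL32, BIRC3 and SOD2 have filled points on opposite sides of 0, and the 5 inhibitors and feedback genes from NFKBIA to TNIP1 have filled orange points above 0.

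Sorted by their calls, 12 members were higher with deltaNp63beta than in both other groups and not called with deltaNp63alpha. These were CXCL2, CXCL10, CXCL11, CXCL14, CXCL16, CCL28, REL, NFKBIA, NFKBIZ, TNFAIP3, TNIP1 and ICAM1. SOD2, BIRC3 and IL32 were called in opposite directions against vector, and CXCL1, CXCL8 and TNFAIP2 were called lower with deltaNp63alpha and not called with deltaNp63beta. CXCL3, CSF3 and IL6 were called lower with both, and NFKBIE higher with both. IL6 passed the filter through the vector libraries alone. The share of all tested genes with each of these patterns was not computed, so the patterns are not shown to be particular to the members. Of all tested genes, 21.8% were called higher with deltaNp63beta against vector and 17.4% against deltaNp63alpha. Of the 14 members with the word GGAATTTCC in a promoter, 12 were tested, of which CXCL10 and CXCL11 passed the filter through deltaNp63beta alone. Among the other 10, limma called 0 higher and 3 lower with deltaNp63alpha, beside 8.13% and 6.37% of all tested genes. It called 5 higher and 1 lower with deltaNp63beta, beside 21.8% and 19.5%, and 7 higher and 0 lower between the isoforms, beside 17.4% and 15.5%. At an unadjusted limma p under 0.05 these were 0 and 3, 6 and 1, and 9 and 0. Members of that set went either way with deltaNp63beta, as CXCL2 and CXCL3 did.

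Upstream of NF-kB, 4 of 24 tested receptors and adaptors were called higher and 2 lower with deltaNp63alpha. These are 16.7% and 8.33%, beside 8.13% and 6.37% of all tested genes. With deltaNp63beta 7 were higher and 4 lower (29.2% and 16.7%, beside 21.8% and 19.5%). Between the isoforms 4 were higher and 5 lower with deltaNp63beta (16.7% and 20.8%, beside 17.4% and 15.5%). CARD10, the epithelial scaffold that activates the IkB kinase through BCL10 and MALT1, rose by 1.03 ± 0.07 with deltaNp63alpha (adjusted p = 1.51e-06) and by 0.82 ± 0.07 with deltaNp63beta (adjusted p = 2.22e-06). LTBR, the lymphotoxin receptor, rose by 0.33 ± 0.05 (adjusted p = 0.00173) and 0.60 ± 0.05 (adjusted p = 5.64e-06). RIPK1, a kinase of the TNF receptor complex, fell with deltaNp63beta by 0.47 ± 0.08 (adjusted p = 0.000484), and TLR3, a sensor of double-stranded RNA, was 0.68 ± 0.10 higher with deltaNp63beta than with deltaNp63alpha (adjusted p = 0.0004). This list moved in both directions in each comparison, and its median change was 0.11 with deltaNp63alpha and -0.02 with deltaNp63beta.

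Among 19 kinases and ubiquitin enzymes of the pathway, 2 were higher and 2 lower with deltaNp63alpha. These are 10.5% each, beside 8.13% and 6.37% of all tested genes. With deltaNp63beta 4 were higher and 5 lower (21.1% and 26.3%, beside 21.8% and 19.5%). Between the isoforms they were 2 and 2 (10.5% each, beside 17.4% and 15.5%). RBCK1, a subunit of the linear ubiquitin ligase, rose by 0.34 ± 0.05 with deltaNp63alpha (adjusted p = 0.0011) and 0.91 ± 0.05 with deltaNp63beta (adjusted p = 1.54e-07). IKBKG, the regulatory subunit of the IkB kinase, fell by 0.42 ± 0.07 (adjusted p = 0.00327) and 0.64 ± 0.07 (adjusted p = 4.65e-05), and CYLD, a deubiquitinase that restrains the pathway, by 0.50 ± 0.06 (adjusted p = 0.0002) and 0.38 ± 0.06 (adjusted p = 0.000446). Of 12 other inhibitors and cofactors, 1 was higher and 1 lower in each comparison with vector (8.33% each), and 2 and 2 between the isoforms (16.7% each). ZC3H12A, or regnase-1, an RNase that degrades cytokine mRNAs, rose by 1.25 ± 0.07 with deltaNp63beta (adjusted p = 7.44e-08), from a mean of 752.9 to 1793. NLRC5, a regulator of antigen presentation genes, fell by 1.34 ± 0.22 with deltaNp63alpha (adjusted p = 0.00159).

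Of 21 tested NF-kB target genes outside the member list, 7 were higher and 5 lower with deltaNp63alpha (33.3% and 23.8%). With deltaNp63beta 9 were higher and 6 lower (42.9% and 28.6%), and between the isoforms 9 and 4 (42.9% and 19%). The shares of all tested genes were 8.13% and 6.37%, 21.8% and 19.5%, and 17.4% and 15.5% in the same order. SAA1 and SAA2, which encode the acute-phase protein serum amyloid A, are near-identical copies whose reads can be divided between them. SAA1 rose by 1.01 ± 0.11 with deltaNp63alpha (adjusted p = 7.53e-05) and 3.45 ± 0.11 with deltaNp63beta (adjusted p = 1.12e-09). CD82, a tetraspanin, rose by 0.78 ± 0.09 (adjusted p = 0.000101) and 2.06 ± 0.09 (adjusted p = 1.23e-08). Other targets went the opposite way. GADD45B, a stress-response gene, fell by 1.03 ± 0.12 with deltaNp63alpha (adjusted p = 0.000199) and 2.31 ± 0.12 with deltaNp63beta (adjusted p = 8.7e-08). C3, the central complement component, and PLAU, urokinase, were lower with deltaNp63alpha (-0.40 ± 0.05 and -0.58 ± 0.06, adjusted p = 0.000421 and 6.62e-05) and higher with deltaNp63beta (0.95 ± 0.05 and 0.34 ± 0.06, adjusted p = 1.28e-07 and 0.00101). F3, tissue factor, did the reverse, with 0.46 ± 0.06 and -0.81 ± 0.06 (adjusted p = 0.000262 and 8.03e-07).

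On the receiving side, 20 of 42 listed cytokine and chemokine receptors were tested. With deltaNp63alpha 3 were higher and 1 lower (15% and 5%). With deltaNp63beta they were 10 and 3 (50% and 15%), and between the isoforms 6 and 2 (30% and 10%). All tested genes gave 8.13% and 6.37%, 21.8% and 19.5%, and 17.4% and 15.5% in the same order. IL20RB, a receptor chain for IL20 and IL24, rose by 0.55 ± 0.05 with deltaNp63alpha (adjusted p = 1.29e-05) and 1.19 ± 0.05 with deltaNp63beta (adjusted p = 7.11e-09), and IL4R by 0.76 ± 0.06 (adjusted p = 5.94e-06) and 1.48 ± 0.06 (adjusted p = 7.31e-09). IL6ST, the gp130 chain that IL6, IL11 and LIF share, fell by 0.34 ± 0.07 (adjusted p = 0.00908) and 0.52 ± 0.07 (adjusted p = 0.00016). A further 9 tested genes belong to STAT3 signaling and response downstream of gp130, with the kinases JAK1 and JAK2 among them. Of these, 1 was higher and 1 lower with deltaNp63alpha (11.1% each). With deltaNp63beta they were 4 and 1 (44.4% and 11.1%), and between the isoforms 3 and 1 (33.3% and 11.1%). JAK1 (means of 3458, 3316 and 2785) was lower in all deltaNp63beta libraries than in the others. CEBPD, a STAT3-induced transcription factor, rose by 1.78 ± 0.08 with deltaNp63beta (adjusted p = 2.82e-08), from a mean of 696 to 2381, and STAT3 by 0.46 ± 0.05 (adjusted p = 1.6e-05). Of 39 other chemokines and cytokines only 6 were tested, with 0 called by limma with deltaNp63alpha (0 at an unadjusted p under 0.05) and with IL7 higher and CLCF1 lower with deltaNp63beta (0.66 ± 0.23 and -1.02 ± 0.17, adjusted p = 0.0381 and 0.000474). The same fit gave the values of these lists, which were not run under the alternative settings.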

How the data were processed

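Poly(A) RNA of 9 MCF10A cultures, 3 per group, was measured. The deposited signal values are normalized estimated counts per gene. Kallisto 0.46.2, DESeq2 (no version) and GRCh38 are named in the submitters' processing notes, which do not say which tool made the deposited numbers. Whole reads were not recovered: 59.9% to 63.5% of low values lay within 0.1 of a whole step. A test for counts was therefore not run, and limma 3.58.1 (R 4.3.3, trend and robust) was used on log2(value + 1), with 1 fit over all 9 libraries for genes at 10 or higher in 3 or more of them, with Benjamini-Hochberg adjustment over 15108 genes. The pseudocount makes fold changes of low genes too small. The median SE was 0.11. Of 41857 gene IDs, 36387 matched a symbol. Gene positions and 31-base words came from GENCODE 29, which placed 41 of the 42 members (not the ID used for SOD2) and lacks 6480 of the IDs in the files. Of the members, 4 overlap a gene on the same strand and 12 on the other, and whether strand was used is not given in the sources used here.

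The members and lists were chosen with earlier results of these data known. All members are named, plus TP63, marker genes picked after their values were seen, and up to 4 called genes per list and comparison by smallest adjusted p. One gene of the leukocyte marker list is not reported here. The labels do not say whether replicate numbers pair libraries across groups. For libraries of different groups, residuals over all tested genes correlated at -0.117 to 0.0813 with the same number. With different numbers they correlated at -0.144 to 0.122. A shared day or batch was not tested. Alternatives were a pseudocount of 0.1, 2 other filters, 3 other scalings, only the 2 groups compared, a replicate block, no trend, and leaving out each library. No batch is labelled. Files were read and figures drawn with matplotlib 3.10.9, numpy 2.4.6 and pandas 2.3.3 in Python 3.11.15.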

Additional observations from a re-analysis of the deposited data

Results flagged for a closer look

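For 3 members the change against vector differed between the isoforms and had opposite directions, each called against vector and in the test of the difference itself. For IL32 the change with deltaNp63beta exceeded that with deltaNp63alpha by 2.20 log2 units (adjusted p = 2.41e-07, limma), for BIRC3 by 1.62 (adjusted p = 1.5e-06) and for SOD2 by 1.20 (adjusted p = 1.73e-08). In each the 3 libraries of 1 isoform were all below and those of the other all above the vector libraries, though the BIRC3 rise with deltaNp63beta was lost on leaving out deltaNp63beta replicates 1 or 3 or vector replicates 1 or 2 (adjusted p = 0.0548 to 0.0818).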

How the results depend on the processing

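Over 102 results for single members, 1703 values under alternatives kept direction and side of the threshold, 58 lost the call, 16 gained it and 27 changed sign, all of the last in results that were not called. A member that failed the filter under a setting gave no value there. CXCL10, CXCL11 and IL6 had values in 14 or 15 of 18 settings, and IL23A in 17 in both comparisons with deltaNp63beta. CXCL10 and CXCL11 were not tested without any 1 deltaNp63beta library, nor IL6 without any 1 vector library. With the replicate block, members called were 0 higher and 10 lower with deltaNp63alpha, 15 and 3 with deltaNp63beta, and 20 and 1 between the isoforms. The block ended the calls of NFKBIE with deltaNp63alpha (adjusted p = 0.0593) and of CXCL3 (0.0561), CXCL10 (0.0534) and IL6 (0.0718) with deltaNp63beta, and gained TNFAIP3 with deltaNp63alpha (0.03) and NFKB2 between the isoforms (0.041). Without a mean-variance trend, members higher with deltaNp63alpha were 0 and members lower with deltaNp63beta 3. This setting ended the calls of CSF3 (adjusted p = 0.103) and NFKBIE (0.0604) with deltaNp63alpha. With deltaNp63beta CXCL3 (0.0565), RELA (0.0674) and BIRC3 (0.0654) were lost and IL15 (0.0385) gained. Between the isoforms CSF1 (0.0553) was lost, and IL6 (0.0498) and IL15 (0.0329) were gained. The looser filters also ended the call of CXCL3 with deltaNp63beta (0.0514 and 0.0618). Leaving out each library gave 0 to 1 members higher and 7 to 10 lower with deltaNp63alpha, 12 to 17 and 2 to 5 with deltaNp63beta, and 15 to 20 and 1 to 2 between the isoforms. The low ends of these ranges in part reflect CXCL10, CXCL11 or IL6 not being tested, and not only calls that were lost. All genes called lower with deltaNp63alpha were 640 to 1022, lowest without vector replicate 3. Signs changed for NFKBIZ with deltaNp63alpha at equal totals (-0.013) and quantile normalization (-0.002), for CCL28 with deltaNp63alpha (0.006) and IL23A with deltaNp63beta (0) at quantile normalization, and for NFKB2 with deltaNp63beta at equal totals (-0.003). Leaving out 1 library gave values on both sides of 0 with deltaNp63alpha for NFKBIZ (-0.083 to 0.086), CCL28 (-0.34 to 0.237), CXCL16 (-0.159 to 0.133), TNIP1 (-0.019 to 0.01), IL23A (-0.156 to 0.671), CXCL2 (-0.298 to 0.021), IL15 (-0.104 to 0.064) and NFKBIA (-0.045 to 0.138). It did so with deltaNp63beta for IL23A (-0.748 to 0.079), IL24 (-0.736 to 0.182), TNFAIP2 (-0.146 to 0.022) and NFKB1 (-0.001 to 0.117), and between the isoforms for LIF (-0.14 to 0.239). The cause was not tested. Scalings moved the median of all genes by at most 0.04. No fit for counts was possible, so counting error is not modeled and members under about 10 are the least certain.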
